A study of Mus musculus with 10 samples.

Results

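The neutrophil granule genes are 10 genes whose products fill the granules or the cytosol of maturing neutrophils, and they were taken by name from 24062 gene rows. *Elane*, *Mpo*, *Prtn3* and *Ctsg* stand for the primary (azurophil) granules, *Ltf*, *Camp*, *Ngp* and *Lcn2* for the secondary (specific) granules, and *S100a8* and *S100a9* for the calprotectin subunits of the neutrophil cytosol. All 10 were present as rows and all 10 passed the filter on low counts (a level of 1 CPM, counts-per-million over gene reads, reached in 2 or more libraries), which left 12221 genes. That filter could be passed through the IgG libraries alone, so passing it is no result.

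The study asked how the strength of Notch signaling relates to promoter DNA accessibility and gene expression as bone marrow progenitors start T cell development in culture. It used DNase-seq beside the RNA libraries described here. LSK cells, the lineage-depleted SCA-1 and KIT high progenitors of C57BL/6J mice, were grown on the immobilized Notch ligand Delta1 or on control IgG, in serum with SCF, FLT-3 ligand, IL-6 and IL-11. DN1 (KIT++ CD44+ CD25-, 2 libraries) was sorted from Delta1 cultures without IL-7, and DN2a (KIT++ CD44+ CD25+, 2 libraries) and DN2b (KIT+ CD44 low CD25+, 2 libraries) from Delta1 cultures that also received IL-7. The no Notch control (IgG, 4 libraries named D1, D2, R1 and R2 in the labels, which call them wild type at day 14) carried no Delta1, and no sort is named for it. Stage and IL-7 therefore cannot be told apart between DN1 and either DN2 group, and Delta1 and the sort cannot be told apart between DN cells and IgG. Between DN2 cells and IgG, IL-7 differed as well. IL-7 was added at day 14, the day given for IgG, so time in culture differed there too. Within each replicate the DN2 labels carry a later, unexplained date than the DN1 label. The replicates of a stage are described as independent LSK isolates. The paper describes its DN cells as grown on ligand at high density, so these groups are no series of ligand doses. *Il2ra*, which encodes CD25, followed the gates, with a mean of 1.13 CPM in IgG, 24.1 in DN1, 1392 in DN2a and 1939 in DN2b.

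Granulocyte precursors make their granule proteins in waves. Primary granule proteins (myeloperoxidase and the serine proteases neutrophil elastase, proteinase 3 and cathepsin G) are transcribed in promyelocytes, with MYB, RUNX1, PU.1 and C/EBP alpha among the factors known to act on their promoters. Secondary granule proteins (lactoferrin, cathelicidin, neutrophilic granule protein and lipocalin 2) follow in myelocytes and metamyelocytes and need C/EBP epsilon, and S100A8 and S100A9 accumulate in the cytosol as the cells mature. The ratio of the classes is thus commonly read as a sign of granulocyte stage. Progenitors on the way to T cells are known to retain some myeloid potential until commitment.

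The libraries held 12354635 to 35367925 reads on genes, so the level that 3 counts give lay between 0.0848 and 0.243 CPM, and reads that aligned to more than 1 place (16.4% to 30.1%) were counted on no gene. CPM was taken over the reads on genes of each library. The 10 genes together took 2.38%, 6.51%, 4.17% and 2.54% of all gene reads in D1, D2, R1 and R2. In DN1 they took 0.322% in replicate 1 and 0.00969% in replicate 2. In bulk RNA such as this, fewer neutrophil-lineage cells and less granule RNA per cell cannot be told apart.

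Promoters of 6 genes are shown because they belong to the adjacent protease genes *Prtn3* and *Elane*, to *Ctsg* and *Gzmb*, which share a protease cluster 156.3 kb apart and differ in level, and to 1 gene of each other class (*Ngp* and *S100a8*). Each runs 5′ to 3′ on the strand of its gene, from 250 bases before to 50 bases after the RefSeq start (GRCm38.p6). Capitals mark matches on either strand to GAGGAA (a PU.1 core), TTGCNNAA (C/EBP), TGTGGT (RUNX) or TAACNG (MYB).
Prtn3, chr10:79879417-79879716, plus strand: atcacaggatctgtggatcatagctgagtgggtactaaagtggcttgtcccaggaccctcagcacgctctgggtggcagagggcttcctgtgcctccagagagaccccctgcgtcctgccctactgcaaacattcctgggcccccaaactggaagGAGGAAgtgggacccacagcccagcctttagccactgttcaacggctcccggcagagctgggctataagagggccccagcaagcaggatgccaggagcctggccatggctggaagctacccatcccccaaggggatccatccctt
Elane, chr10:79886062-79886361, plus strand: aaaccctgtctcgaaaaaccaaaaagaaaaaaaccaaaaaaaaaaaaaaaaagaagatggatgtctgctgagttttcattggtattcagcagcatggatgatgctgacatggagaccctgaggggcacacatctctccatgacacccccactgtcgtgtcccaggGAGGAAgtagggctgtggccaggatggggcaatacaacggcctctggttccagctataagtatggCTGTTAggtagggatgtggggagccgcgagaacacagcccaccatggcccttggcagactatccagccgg
Ctsg, chr14:56102525-56102824, minus strand: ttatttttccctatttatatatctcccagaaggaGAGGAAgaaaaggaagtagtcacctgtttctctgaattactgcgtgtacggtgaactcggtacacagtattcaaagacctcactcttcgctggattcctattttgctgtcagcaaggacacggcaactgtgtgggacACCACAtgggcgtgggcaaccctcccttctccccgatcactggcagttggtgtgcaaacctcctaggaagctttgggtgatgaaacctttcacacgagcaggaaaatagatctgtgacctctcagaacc
Gzmb, chr14:56262285-56262584, minus strand: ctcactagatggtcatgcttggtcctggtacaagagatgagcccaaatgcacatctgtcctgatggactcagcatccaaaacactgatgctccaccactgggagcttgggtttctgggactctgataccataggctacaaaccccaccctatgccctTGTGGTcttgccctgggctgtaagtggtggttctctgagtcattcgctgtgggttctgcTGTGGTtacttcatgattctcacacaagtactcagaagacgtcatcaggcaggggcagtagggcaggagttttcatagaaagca
Ngp, chr9:110419558-110419857, plus strand: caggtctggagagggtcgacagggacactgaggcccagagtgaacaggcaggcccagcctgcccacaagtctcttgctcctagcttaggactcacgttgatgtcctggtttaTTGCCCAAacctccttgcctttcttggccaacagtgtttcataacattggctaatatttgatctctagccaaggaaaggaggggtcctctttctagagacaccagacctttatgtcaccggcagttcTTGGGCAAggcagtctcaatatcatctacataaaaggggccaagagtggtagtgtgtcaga
S100a8, chr3:90668821-90669120, plus strand: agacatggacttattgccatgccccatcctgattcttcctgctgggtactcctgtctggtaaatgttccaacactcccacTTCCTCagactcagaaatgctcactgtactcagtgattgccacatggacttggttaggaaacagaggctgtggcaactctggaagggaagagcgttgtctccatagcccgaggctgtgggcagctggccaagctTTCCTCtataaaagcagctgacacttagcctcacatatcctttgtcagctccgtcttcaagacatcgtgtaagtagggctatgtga

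All 10 members had a promoter in the RefSeq table. GAGGAA was found in the windows of 7 of the 10, against 28.3% of the 32841 promoters in the table. In *Prtn3* and *Elane* it began 95 and 85 bases before the RefSeq start. The *Prtn3* window (chr10:79879417-79879716) lies inside the gene as GENCODE vM21 places it (chr10:79874476-79883174), so the start sites of these sources differ. TTGCNNAA was found in 4 of the 10 (*Ltf*, *Ngp*, *Lcn2* and *S100a9*, against 10.8% of all promoters), with 2 matches in *Ngp*, and in none of the primary granule genes. TGTGGT was found in 3 of the 10 (16.8% of all promoters), among them *Ctsg*, and TAACNG in 2 of the 10 (*Elane* and *Mpo*; 23.3% of all promoters). The observed over expected CpG ratio of the windows had a median of 0.16 over the 10 members against 0.38 over all promoters, and 9 of the 10 lay below that median. *Ctsg*, at 0.46, was the exception. These matches are descriptions of letters and were not set against any binding data.

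The primary granule genes were abundant in every IgG library, highest in D2 and lowest in D1. Positions of genes are those of GENCODE vM21 on mm10. *Elane* (neutrophil elastase, chr10:79886247-79888215, plus strand) stood at 457, 6005, 569 and 1563 CPM in D1, D2, R1 and R2, at 43.6 and 1.24 CPM in DN1 replicates 1 and 2, at 0.0364 and 0.0719 CPM in DN2a, and at 0 in both DN2b libraries. The DN2a values are 1 read each. No DN library reached the lowest IgG library, and the DN1 replicates differed 35.0-fold where the IgG libraries spanned 13.1-fold.

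*Mpo* (myeloperoxidase, which makes hypochlorous acid, chr11:87793581-87804413, plus strand) stood at 2558, 12385, 4093 and 7418 CPM in IgG, 408 and 26.2 CPM in DN1, 2.26 and 4.24 CPM in DN2a, and 0.0651 and 0.405 CPM in DN2b. *Prtn3* (proteinase 3, chr10:79874476-79883174, plus strand, ending 3.1 kb before *Elane*) stood at 879, 3581, 1379 and 2258 CPM in IgG, 134 and 17.1 CPM in DN1, 7.83 and 15.3 CPM in DN2a, and 0.585 and 1.70 CPM in DN2b. *Ctsg* (cathepsin G, chr14:56099881-56102574, minus strand, in the granzyme and mast cell protease cluster) stood at 474, 1952, 718 and 1402 CPM in IgG, 94.4 and 9.68 CPM in DN1, 10.6 and 20.8 CPM in DN2a, and 8.07 and 8.58 CPM in DN2b. In each of these genes D2 was the highest and D1 the lowest IgG library, and no DN library reached D1. *Ctsg* was the only member with over 100 reads in every DN library, and its DN2a libraries lay within the range of the DN1 libraries.

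Within the primary class the make-up of the reads differed between libraries. *Mpo* held 51.8% to 60.6% of the primary granule CPM in the IgG libraries and 60.1% and 48.3% in DN1. *Elane* held 8.42% to 25.1% in IgG and less in both DN1 libraries (6.41% and 2.29%), and *Ctsg* held 8.16% to 11.1% in IgG and more in both (13.9% and 17.8%). *Prtn3* held 15.0% to 20.4% in IgG and 19.7% and 31.6% in DN1. *Mpo* held 10.9% and 10.5% in DN2a, where *Ctsg* held 51.1% and 51.4%. In DN2b *Ctsg* held 92.5% and 80.3%. These shares are descriptions of single libraries, and in DN2b they rest on 134 and 132 reads of the class.

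The secondary granule genes followed another order of the IgG libraries, with R2 lowest in 4 of 4. *Ltf* (lactoferrin, an iron-binding protein, chr9:111019271-111042767, plus strand) stood at 1430, 872, 3994 and 424 CPM in D1, D2, R1 and R2, 178 and 1.08 CPM in DN1, 0.291 and 0.503 CPM in DN2a, and 0.651 and 0.729 CPM in DN2b. *Ngp* (neutrophilic granule protein, chr9:110419747-110423012, plus strand) stood at 4077, 12640, 8152 and 1827 CPM in IgG and 510 and 6.82 CPM in DN1, with 1 read in DN2a replicate 1 and none in the other DN2 libraries. The low *Ltf* level of DN2 cells (7 to 10 reads a library) was the only signal of the 4 secondary members found in every DN2 library.

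*Camp* (the cathelicidin precursor, chr9:109847379-109849617, minus strand, 570.1 kb from *Ngp*) stood at 408, 1638, 1274 and 273 CPM in IgG and 37.5 and 0.487 CPM in DN1, and no read was counted in DN2a or DN2b. *Lcn2* (lipocalin 2, which binds bacterial siderophores, chr2:32384633-32388252, minus strand) stood at 1286, 1464, 2302 and 668 CPM in IgG, 152 and 1.68 CPM in DN1, 0 in DN2a, and 0 and 0.162 CPM in DN2b. All 4 genes thus lay below the lowest IgG library in every DN library.

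The S100 genes were the most even of the 10 across IgG. *S100a8* (chr3:90668978-90670035, plus strand) stood at 5375, 10300, 6949 and 4407 CPM in IgG, 615 and 14.8 CPM in DN1, 0.109 and 0.0719 CPM in DN2a, and 0 and 0.0809 CPM in DN2b. *S100a9* (chr3:90692632-90695721, minus strand), 22.6 kb away, stood at 6851, 14306, 12240 and 5119 CPM in IgG, 1045 and 17.8 CPM in DN1, 0.109 and 0 CPM in DN2a, and 0.195 and 0 CPM in DN2b. The partners kept a narrow ratio, with 1.16 to 1.76 *S100a9* reads for each *S100a8* read in IgG and 1.70 and 1.21 in DN1. Per kb of exon, the scale on which genes can be compared, the IgG means were highest for *S100a9* (18447 CPM per kb), *S100a8* (13905) and *Ngp* (5461) and lowest for *Ltf* (600 CPM per kb).

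**Figure D1:**
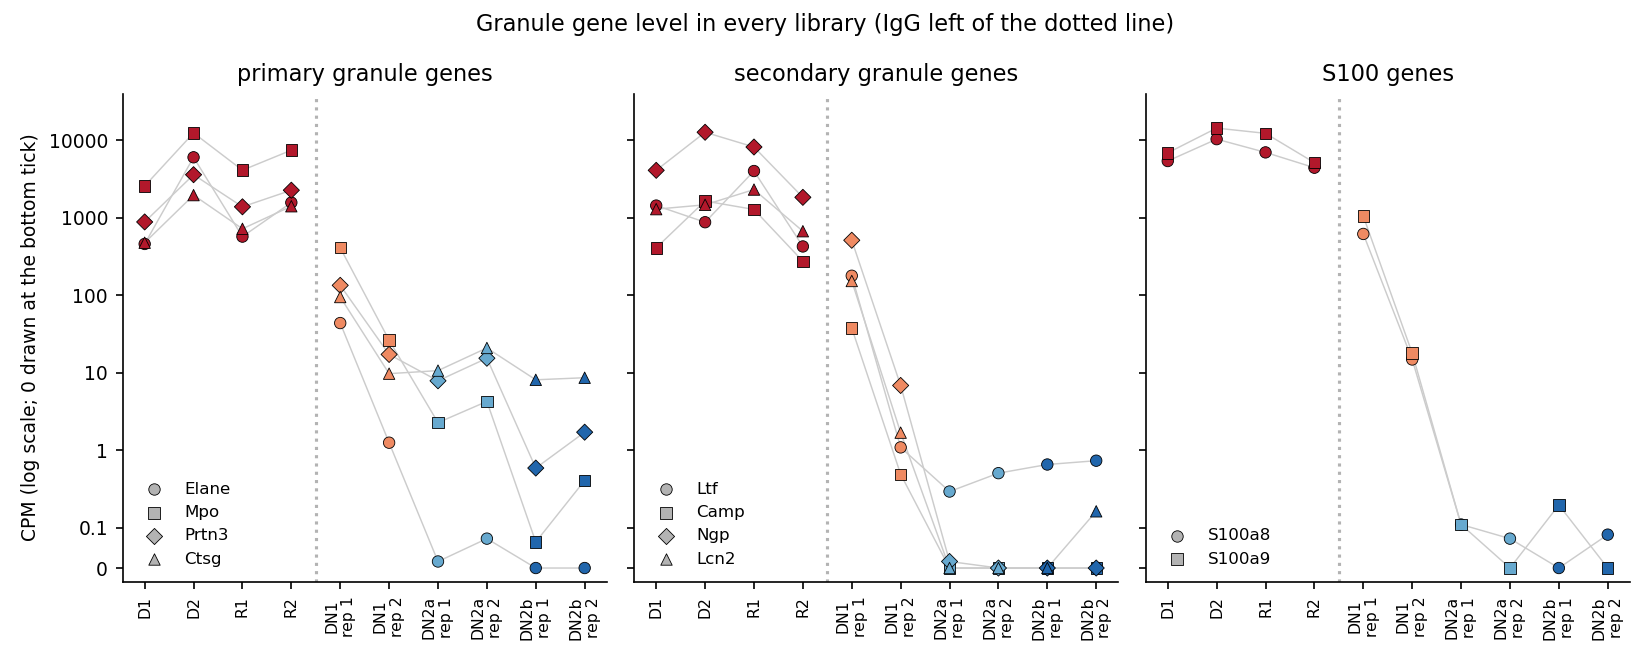
CPM of each member (log axis, 0 drawn at the bottom tick) in the 4 IgG and 6 DN libraries, 1 panel a class and 1 symbol a gene, coloured by group. CPM is not scaled for gene length. Every DN library lies below every IgG library for all 10 genes, and only *Ctsg* and *Prtn3* keep more than 5 CPM in DN2a.

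The IgG libraries differed among themselves more in the granule genes than in most genes. The highest IgG library exceeded the lowest 13.1-fold for *Elane*, 9.41-fold for *Ltf* and 6.92-fold for *Ngp*, and 2.34-fold for *S100a8*, against a median of 1.89-fold over the 9509 genes with a mean of at least 5 CPM in IgG. Reads of *Ngp* outnumbered those of *Ltf* 14.5-fold in D2 and 2.04-fold in R1. The letters D and R are not explained in the sources used here.

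The classes were compared within each library by the summed CPM per kb of exon of the 4 secondary over that of the 4 primary granule genes. The ratio was 2.16 in D1, 0.912 in D2, 3.04 in R1 and 0.353 in R2. Secondary genes were thus the higher class in D1 and R1 and the lower one in D2 and R2, and each letter pair held 1 library of either kind. On the log2 scale the IgG mean was 0.27 ± 1.39 (SD, n = 4), a mean well within its spread.

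In DN1 the ratio was 1.70 in replicate 1 and 0.230 in replicate 2, with a log2 mean of -0.68 ± 2.04 (SD, n = 2). The first lay inside the IgG range and the second below its lowest library, so the groups overlapped. No test was run on this ratio, since it sums genes that were chosen. In DN2a it was 0.00703 and 0.00483, and in DN2b 0.0269 and 0.0422, where the secondary sum rests on 7 to 11 reads a library, most of them of *Ltf*. The S100 sum over the primary sum followed the same order in IgG and DN1, at 9.04 in D1, 3.07 in D2, 9.32 in R1, 2.44 in R2, 7.98 in DN1 replicate 1 and 1.76 in DN1 replicate 2.

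**Figure D2:**
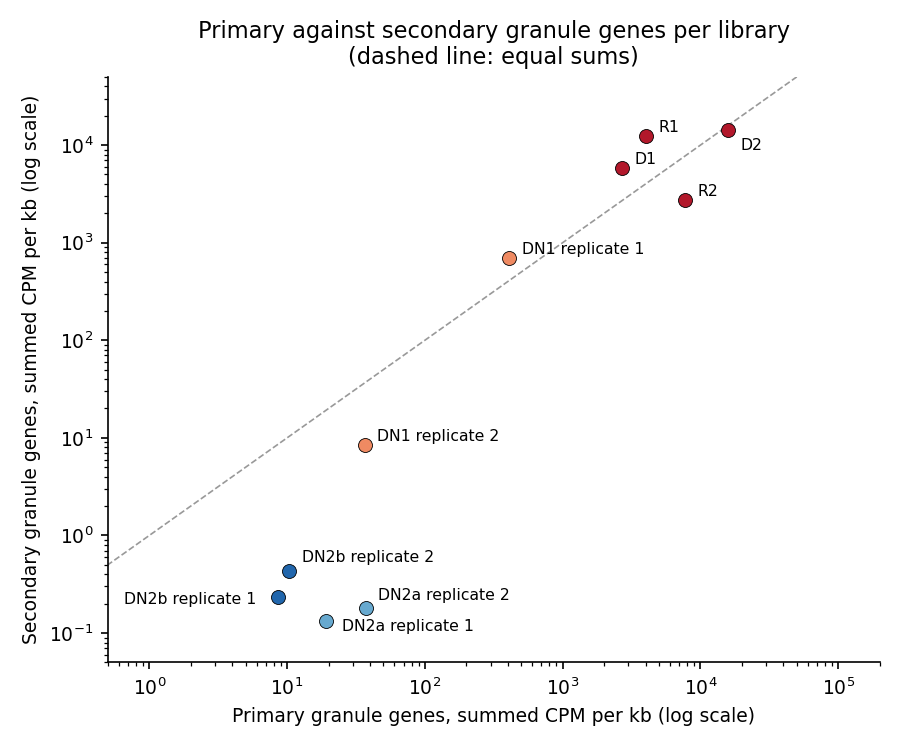
Summed CPM per kb of exon of the secondary (y) against the primary granule genes (x) per library, both axes logarithmic, with the line of equal sums dashed and 1 point a library coloured by group. D1, R1 and DN1 replicate 1 lie above the line and the other libraries below it, D2 only just (0.912).

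Against IgG, the granule genes were lower in both DN1 libraries, by folds that depended on the library. The mean CPM of IgG exceeded that of DN1 95.9-fold for *Elane*, 47.3-fold for *Camp*, 30.4-fold for *Mpo* and 18.1-fold for *S100a9*, with the other 6 genes between 18.6 and 26.9-fold. The IgG mean of *Elane* rests largely on D2 (6005 CPM, against 457, 569 and 1563 CPM in D1, R1 and R2). Against DN1 replicate 1 alone the folds ran from 9.21 (*S100a9*) to 49.3 (*Elane*), and against replicate 2 alone from 117 (*Ctsg*) to 1850 (*Camp*). By edgeR's quasi-likelihood test on all 10 libraries, with Benjamini-Hochberg adjustment over the 12221 genes, 9 of the 10 were called lower in DN1 (threshold 0.05). The same call was made for 17.0% of all genes tested. All 10 members had both DN1 libraries below all 4 IgG libraries, as did 19.4% of all genes tested. The median fitted log2 fold change was -4.94 over the members and 0.01 over all genes. These p-values measure the spread between these libraries.

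The primary granule genes fell by -6.98 ± 1.89 (*Elane*, SE, adjusted p = 0.0252), -5.27 ± 1.24 (*Mpo*, 0.0124), -5.08 ± 1.03 (*Prtn3*, 0.00661) and -4.78 ± 1.01 (*Ctsg*, 0.00825) on the log2 scale. Of the secondary granule genes, *Camp* (-5.95 ± 1.76, 0.0393), *Ngp* (-5.09 ± 1.65, 0.0473) and *Lcn2* (-4.58 ± 1.5, 0.0487) passed, and *Ltf* did not (-4.58 ± 1.66, 0.0617). *S100a8* (-4.79 ± 1.27, 0.0203) and *S100a9* (-4.55 ± 1.40, 0.0357) passed. The size of the fall did not separate the classes, since their ranges of log2 fold change overlapped. No member was higher, where 14.3% of all genes tested were.

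The calls depended on single libraries to a degree that differed by gene. *Mpo*, *Prtn3*, *Ctsg* and *S100a8* passed with each of the 10 libraries left out in turn, and *Elane* in 9 of 10 (adjusted p = 0.0852 without DN1 replicate 2). *S100a9* passed in 7, *Camp* in 6, *Ngp* in 4 and *Lcn2* in 2. *Ltf* passed in 1, without DN1 replicate 1 (0.00686), and also with DESeq2 (0.00484) and with no filter (0.0481). With either DN1 library left out the other is a lone sample, assumed to vary like the other groups. Without R1, 5 of the 10 members passed (12.6% of all genes tested were called lower). With D1 and D2 as the only controls 4 passed (11.9%), and with R1 and R2 5 (15.2%).

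**Figure D3:**
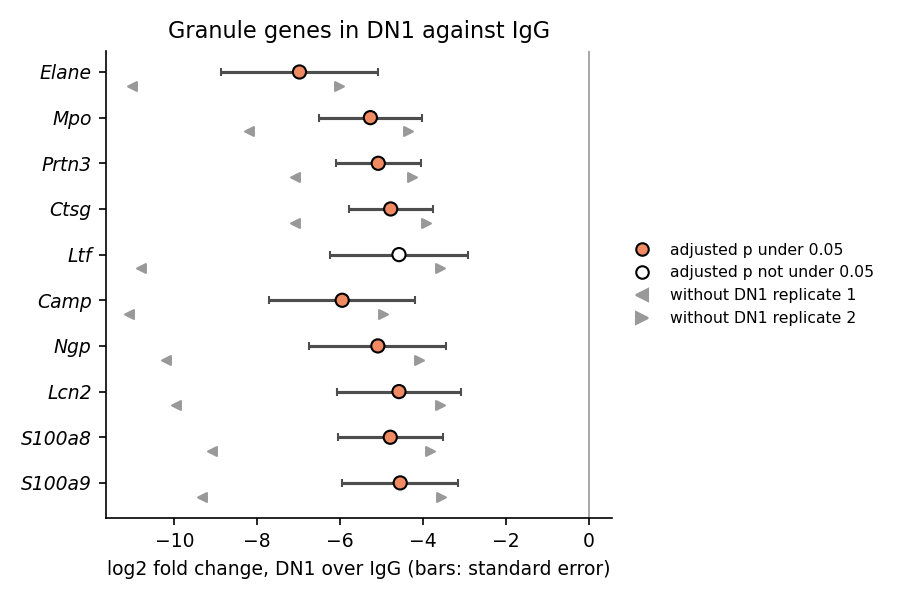
Fitted log2 fold change of DN1 over IgG for the 10 members (points, bars are the standard error; filled where the adjusted p is under 0.05), with the value after leaving out either DN1 library (grey triangles). All lie below 0, *Ltf* is the open point, and each fall is larger without DN1 replicate 1 than without DN1 replicate 2.

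The 2 DN1 libraries differed in every granule gene, and among these 4 genes against 4 by more in the secondary than in the primary class. Replicate 1 exceeded replicate 2 by 7.79-fold for *Prtn3* (95% counting interval 6.94 to 8.78), 9.75-fold for *Ctsg*, 15.6-fold for *Mpo* and 35.0-fold for *Elane* (23.2 to 55.5). It exceeded it by 74.9-fold for *Ngp* (62.8 to 89.9), 77.1-fold for *Camp*, 90.7-fold for *Lcn2* and 164-fold for *Ltf* (106 to 269). *S100a8* (41.7-fold) and *S100a9* (58.7-fold) fell between the classes. The ranges of the classes did not overlap, although the counting intervals of *Elane* and *Camp* did (40.4 to 169 for *Camp*), and the intervals cover counting error only.

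Over the 12221 genes tested the median ratio of the replicates was 1.08, and 2.89% of genes were at least 5-fold higher in replicate 1, as were all 10 members. Several genes of granulocyte differentiation moved the same way, among them *Cebpe* (12.7 and 0.703 CPM), which encodes C/EBP epsilon, *Cebpa* (14.9 and 1.57 CPM) and the G-CSF receptor gene *Csf3r* (9.72 and 1.08 CPM), while *Gfi1* (12.4 and 12.8 CPM), a repressor needed for neutrophils, was alike. Among further granule genes the ratios of the classes also lay apart, with 1 exception, but their counting intervals did not. Of the 9 other secondary granule genes compared, *Mmp8* was 80.6-fold, *Chil3*, a chitinase-like protein of neutrophil precursors, 60.4-fold, *Hp* 50.1-fold, *Cd177* 49.0-fold, *Olfm4* 41.7-fold, *Pglyrp1* 36.3-fold, *Slpi* 31.9-fold and *Cybb* 26.5-fold higher in replicate 1. *Cyba*, at 1.90-fold, was the exception, and *Slpi* and *Cybb* lay below the 35.0-fold of *Elane*. *Olfm4* rested on 1 read in replicate 2 (interval 7.15 to 1680), and *Cd177* (13.3 to 409) and *Slpi* (8.53 to 268) on 2 reads each. These intervals and that of *Cybb* (17.3 to 42.5) overlapped that of the primary granule gene *Lyz1* (14.7 to 30.8). Of other primary granule genes *Lyz1* was 21.0-fold, *Ms4a3* 11.3-fold, *Lyz2* 10.9-fold and *Cd63* 4.52-fold higher, while the ratio was 1.23 for *Srgn*, 0.939 for *Ctsc*, 0.629 for *Prss57* and 0.611 for *Gusb*. *Srgn* (850 CPM), *Ctsc* (161 CPM), *Prss57* (94.45 CPM) and *Gusb* (190 CPM) were also counted in DN2a, given as means. *Lyz1* and *Lyz2* had profiles near that of the secondary class.

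Other lineages also differed between these libraries. The summed CPM of the 9 erythroid markers (4 of the 9 listed at 0 in every library) was 163 in replicate 1 and 1.46 in replicate 2, that of the 10 mast cell and basophil markers 2829 and 645, and that of the 6 megakaryocyte markers 466 and 141. The 6 monocyte markers summed to 105 and 534 CPM but were divided, with *Ccr2* (54.5 and 493 CPM), *Fn1* and *Klf4* lower in replicate 1, and *Ly6c2* (38.9 and 0.379 CPM), *F13a1* and *Irf8* higher in it. The 11 macrophage markers summed to 39.1 and 40.1 CPM, most of it *Csf1r* (21.8 and 25.9 CPM) and *Cd68* (12.3 and 12.9 CPM), while *Adgre1* had 83 and 4 reads, and 5 of the 11 were at 3 reads or fewer in both. The 10 T lineage markers summed to 414 and 520 CPM, most of it *Tcf7* (284 and 272 CPM). *Cd3g* (36.2 and 104 CPM), *Cd3d*, *Rag1*, *Ptcra* and *Lck* were lower in replicate 1. *Il2ra* (27.6 and 20.55 CPM) and *Bcl11b* (2.70 and 1.41 CPM) were higher in it, and the counting intervals of *Gata3* and *Cd3e* included a ratio of 1. The 6 progenitor markers summed to 950 and 1563 CPM, with *Cd34* (432 and 1075 CPM), *Flt3*, *Hoxa9* and *Mecom* lower and *Kit* and *Meis1* higher in replicate 1, and the 7 dendritic cell markers summed to 132 and 288 CPM. The part of these markers in the granule gene difference was not tested. The labels date the libraries to different years.

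**Figure D4:**
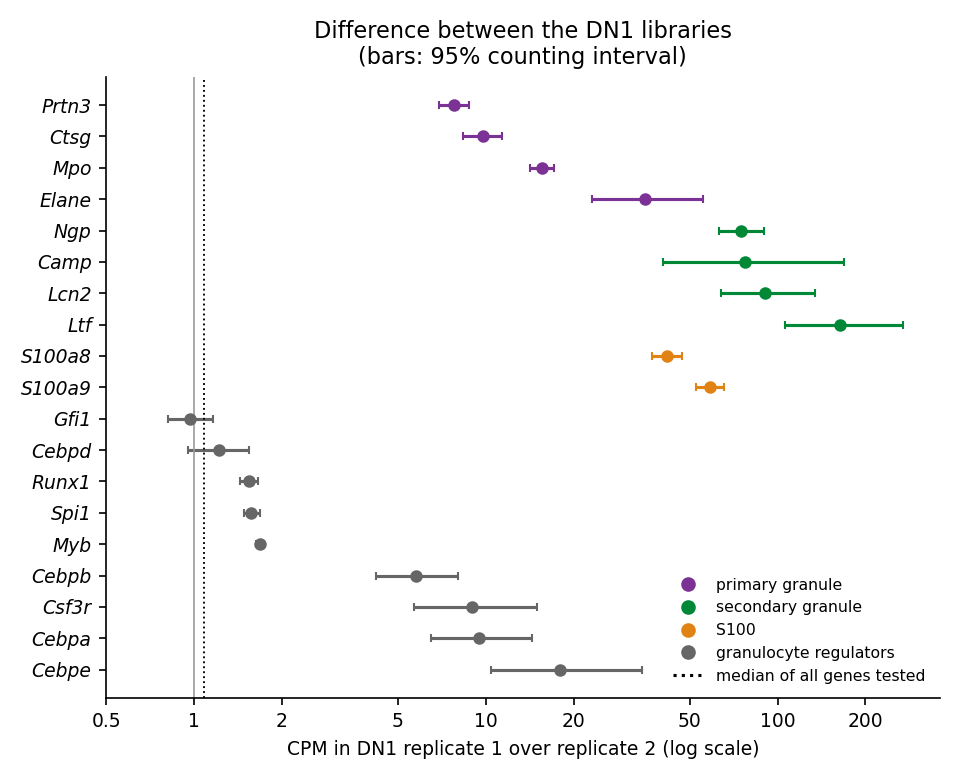
CPM in DN1 replicate 1 over replicate 2 (log axis) for the members by class and for the granulocyte regulators, with 95% counting intervals and the median over all genes tested (1.08) dotted. Primary granule genes lie between 7.79 and 35.0-fold, secondary ones between 74.9 and 164-fold, and *Gfi1*, *Cebpd*, *Runx1*, *Spi1* and *Myb* under 2-fold.

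DN2a and DN2b lay far below IgG in all 10 genes. All 10 were lower in DN2a (24.3% of all genes tested) and all 10 in DN2b (22.5% of all genes tested), and none was higher (21.2% and 19.9% of all genes tested), also with any library left out and under every alternative. No DN2a or DN2b library overlapped an IgG library in any member, as for 29.9% and 28.0% of all genes tested. These comparisons share the IgG libraries with that of DN1.

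Of the members that still had reads, *Ctsg* was 72.5-fold lower in DN2a and 137-fold lower in DN2b than in IgG by the mean CPM (log2 fold change -6.25 ± 1.10 and -7.18 ± 1.16 SE), *Prtn3* 175-fold and 1770-fold, and *Mpo* 2040-fold and 28200-fold. *Ltf* was 4230-fold and 2440-fold lower. In DN2b the folds of *Mpo* rest on 1 and 5 reads in replicates 1 and 2 and those of *Prtn3* on 9 and 21, so they carry a wide counting error. *Ctsg* thus had the smallest fall of the 10 in both, with adjusted p = 0.00221 in DN2a and 0.00156 in DN2b.

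Where a group had no read, the fold is a bound against 3 counts over the group. In DN2b *Ngp* was at least 61700-fold, *Elane* at least 19900-fold and *Camp* at least 8300-fold lower than in IgG, and in DN2a *Lcn2* was at least 19700-fold and *Camp* at least 12400-fold lower. These bounds use the IgG mean and leave out its spread. The IgG libraries spanned 13.1-fold for *Elane*, 6.92-fold for *Ngp*, 5.99-fold for *Camp* and 3.45-fold for *Lcn2*. With 3 reads over each DN2 group, *S100a9* was 133000-fold lower in DN2a (counting interval 45400 to 644000) and 89000-fold in DN2b (30500 to 432000). The fitted log2 fold changes of such genes depend on the prior count, and the median over the members was -15.78 in DN2a and -15.71 in DN2b as fitted, and -13.93 and -14.27 with the genes without reads at their bound, against -0.05 over all genes in both.

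Between DN stages the tests separated few granule genes. In DN2a, 1 of the 10 was lower than in DN1 (*S100a8*, 0.205% of all genes tested were called lower), at a log2 fold change of -11.36 ± 1.89 (SE, adjusted p = 0.0494). None was higher (0.196% of all genes tested). At an unadjusted p under 0.05, 9 of the 10 were lower (7.49% of all genes tested), and DESeq2 called 8 (2.86%). Both DN2a libraries lay below both DN1 libraries for 9 members, the exception being *Ctsg*, and for 31.7% of all genes tested. Without DN1 replicate 2, 7 members passed (1.53% of all genes tested), and with any other single library left out none did, where 5 to 9 had an unadjusted p under 0.05 (3.25% to 8.21% of all genes tested). With the replicate number as a block in the 6 DN libraries, 3 members passed (0.15% of all genes tested), *S100a8* (adjusted p = 0.0336), *S100a9* (0.00425) and *Ngp* (0.0135), against 0 in those libraries with no block (8 at an unadjusted p under 0.05, 6.51% of all genes tested). Without DN1 replicate 1 *Ctsg* turned to a log2 fold change of 0.83.

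In DN2b, 4 of the 10 were lower than in DN1 (0.892% of all genes tested were called lower), none was higher (1.01% of all genes tested), and no DN2b library reached a DN1 library in any of the 10 (32.4% of all genes tested). *Mpo* (-9.66 ± 1.67, adjusted p = 0.0258), *Prtn3* (-5.83 ± 1.15, 0.0386), *S100a8* (-12.62 ± 2.10, 0.022) and *S100a9* (-11.95 ± 2.17, 0.0299) passed, and none of the secondary granule genes did in this fit. *Ngp* had an adjusted p of 0.0626 and *Ctsg* of 0.302. With the replicate number as a block in the 6 DN libraries the calls differed: *Ngp* passed (adjusted p = 0.00972) with *S100a8* (0.0182) and *S100a9* (0.00411), and *Mpo* (0.0885) and *Prtn3* (0.117) did not (0.769% of all genes tested were called lower). With no block, those libraries gave 0 calls, with 9 members at an unadjusted p under 0.05 (8.7% of all genes tested). In the fit of all 10 libraries the count was 8 without DN1 replicate 2 (2.15% of all genes tested), 2 without DN1 replicate 1 (0.281%), 1 without DN2a replicate 1 (0.411%), 2 without DN2a replicate 2 (0.468%), 2 without R1 (0.511%) and 0 without DN2b replicate 1 (0.115%) or replicate 2 (0.183%), where 9 had an unadjusted p under 0.05 (5.26% and 7.03% of all genes tested).

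Other genes of the granules were taken from lists drawn up for granule biology. Of 8 further primary granule genes, 4 were lower in DN1 than in IgG and 4 did not pass. The counts of this and the other lists stand against 17.0% of all genes tested called lower and 14.3% called higher in DN1. *Lyz2* (lysozyme) fell from 8566 CPM in IgG to 146 in DN1 (log2 fold change -6.20 ± 1.01 SE, adjusted p = 0.00265), and *Ctsc* (cathepsin C, which activates the granule serine proteases) from 955 to 163 CPM (-2.82 ± 0.36, 0.000935). *Srgn* (serglycin, the proteoglycan that packs granule proteins) held 784 CPM in IgG and 981 CPM in DN1 and did not pass (adjusted p = 0.977).

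Of 10 further secondary granule genes 9 were lower in DN1, among them *Chil3* (1803 and 34.9 CPM), *Cybb* (the NADPH oxidase subunit gp91phox, 939 and 16.3 CPM) and *Mmp8* (neutrophil collagenase, 918 and 6.62 CPM). Of 11 tested genes of the gelatinase granules and of late neutrophils 9 were lower, with *Itgam* (CD11b) at 750 and 41.8 CPM, *Adam8* (a metalloprotease) at 701 and 4.63 CPM and *Fcnb* (ficolin B) at 260 and 4.11 CPM. *Fcnb* lost its call without R1 (adjusted p = 0.0554) or DN1 replicate 2 (0.058). In DN2b 10 of 10 and 11 of 11 were lower than in IgG (22.5% of all genes tested).

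The regulators of granulocyte genes divided. In DN1 7 of 9 were lower than in IgG and none higher. *Cebpa* (-4.88 ± 0.93 SE, adjusted p = 0.00502), *Cebpb* (-4.51 ± 0.84, 0.00457), *Cebpd* (-3.95 ± 0.58, 0.00167), *Csf3r* (-5.49 ± 0.84, 0.00204) and *Spi1*, the PU.1 gene (-2.15 ± 0.26, 0.000709), fell by these log2 fold changes. *Cebpe* (adjusted p = 0.0417) and *Gfi1* (0.0153) passed but lost the call when single libraries were left out, *Cebpe* without DN1 replicate 2, D2, R1 or R2 (0.0545 to 0.138) and *Gfi1* without either DN1 library (0.0819 and 0.0888). *Runx1* held 63.7 CPM in IgG and 85.0 CPM in DN1 (0.606).

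*Myb*, known to drive primary granule genes, held 44.4, 217, 89.3 and 238 CPM in D1, D2, R1 and R2 and 294 to 497 CPM in the 6 DN libraries, above every IgG library. It passed in DN2b (1.54 ± 0.53, adjusted p = 0.0409) and not in DN1 (1.17 ± 0.53, 0.123), and in DN2b the call was lost without either DN2a library (0.0601 and 0.0587), either DN2b library (0.175 and 0.0877) or R1 (0.0927). In DN1 it passed without D2 (0.0487). In DN1 replicate 2 *Myb* (294 CPM), *Runx1* (66.8 CPM), *Gfi1* (12.8 CPM) and *Spi1* (78.7 CPM) were counted in a library with 1.24 CPM of *Elane*. The other listed regulators were low in that library: *Cebpa* at 1.57 CPM, *Cebpb* at 2.49, *Cebpd* at 6.27, *Cebpe* at 0.703 and *Csf3r* at 1.08 CPM.

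Neighbouring protease genes had other profiles. *Prss57* encodes NSP4, a further neutrophil serine protease, and lies 83.5 kb from *Prtn3* on chr10. It stood at 21.8, 118, 42.1 and 57.1 CPM in IgG, 16.9 and 26.8 CPM in DN1, 102 and 87.3 CPM in DN2a, and 132 and 113 CPM in DN2b. It did not pass in either DN1 (-1.73 ± 0.62 SE, adjusted p = 0.0589) or DN2b (0.93 ± 0.55, 0.194) against IgG. Both calls turned on single control libraries: without D2 it was lower in DN1 (0.0481) and higher in DN2b (0.00554), and without D1 lower in DN1 (0.026). In DN2b *Elane* and *Prtn3* had 0 and 30 reads over both libraries, and *Prss57* had 2032 and 1392 reads in replicates 1 and 2.

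On chr14, *Gzmb* (granzyme B, 156.3 kb from *Ctsg*) went the other way from *Ctsg*. It stood at 0.678, 0.870, 0.226 and 0.809 CPM in IgG, 2310 and 249.2 CPM in DN1, 346 and 426 CPM in DN2a, and 88.1 and 113 CPM in DN2b, a log2 fold change of 10.64 ± 0.88 (SE, adjusted p = 0.000132) in DN1 and 7.21 ± 0.79 (0.00027) in DN2b over IgG. *Mcpt8*, a basophil protease 14.6 kb from *Ctsg*, stood at 17.7, 58.7, 19.4 and 22.2 CPM in IgG and 24.9 and 7.90 CPM in DN1, which did not pass (adjusted p = 0.242). In DN2b it was lower (0.911 and 3.16 CPM, 0.00669), though not without DN2b replicate 1 (0.0602). Of the 7 tested genes of this cluster list 5 were higher in DN1 than in IgG and none lower. Beside *Gzmb* these were the mast cell protease genes *Mcpt1* (7467 and 1879 CPM in DN1, 0.0674 to 5.28 CPM in IgG, adjusted p = 0.0016), *Mcpt2* (1252 and 646 CPM in DN1, 0.00419) and *Mcpt4* (954 and 144 CPM in DN1, 0.00272), and *Gzmc* (1.502 and 1.14 CPM in DN1, 0.0232). *Cma1*, mast cell chymase, stood at 4.42 and 2.001 CPM in DN1 and did not pass (0.735).

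**Figure D5:**
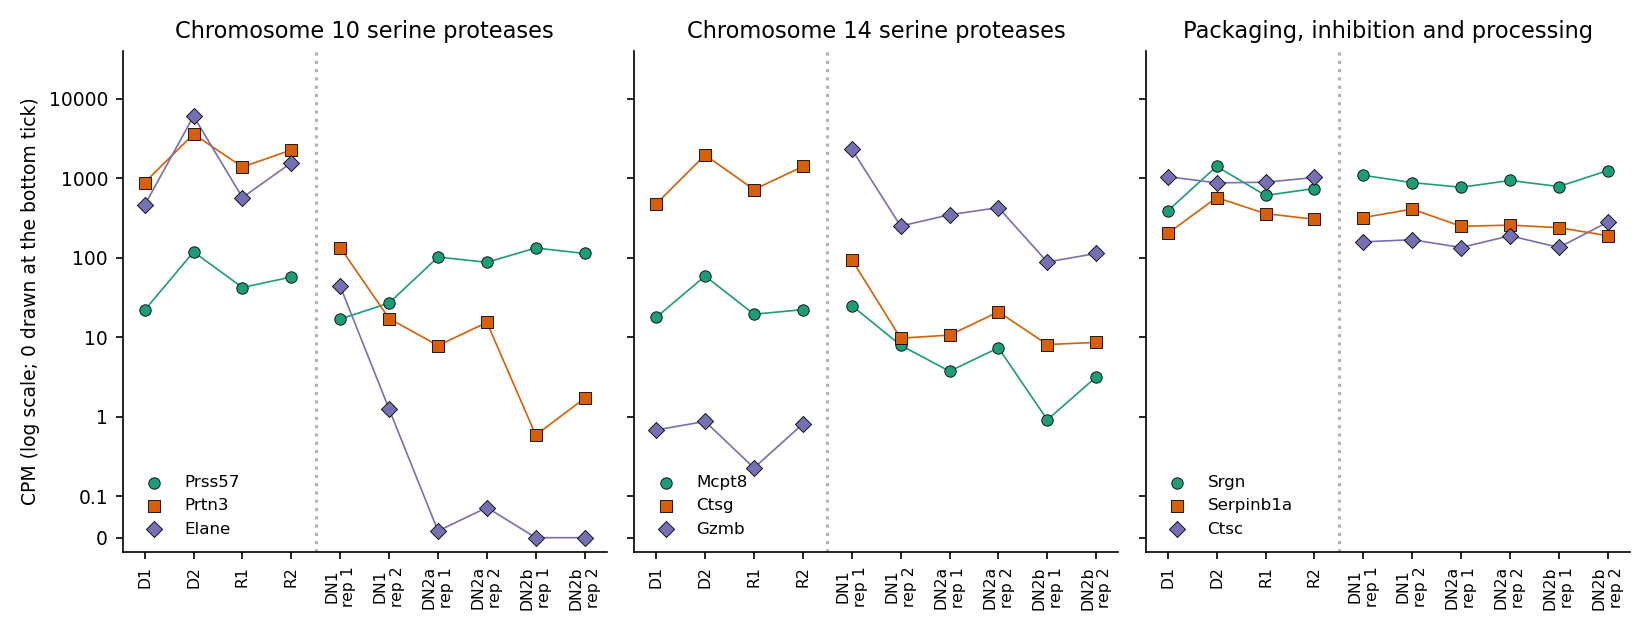
CPM per library (log axis, 0 drawn at the bottom tick) of the chr10 proteases, of chr14 proteases and of *Srgn*, *Serpinb1a* and *Ctsc*, 1 symbol a gene. *Prss57* stays between 16.9 and 132 CPM where *Elane* drops to 0, *Gzmb* stays under 1 CPM in IgG and over 88 CPM in DN cells, and *Srgn* stays between 387 and 1405 CPM in all 10 libraries.

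Of 6 genes of protease inhibitors, 4 were lower in DN1. *Cst3* (cystatin C, 735 and 178 CPM, adjusted p = 0.00282) and *Cstb* (cystatin B, 367 and 49.0 CPM, 0.00397) fell. *Serpinb1a*, which inhibits elastase, proteinase 3 and cathepsin G, held 201, 569, 358 and 304 CPM in IgG, 319 and 408 CPM in DN1, and 238 and 189 CPM in DN2b, and passed in neither (0.654 and 0.126). Of 7 tested S100 genes other than the members, 2 were lower in DN1, *S100a6* (373 and 13.9 CPM, 0.00212) and *S100a11* (629 and 225 CPM, 0.00372), and 1 was higher, against 17.0% and 14.3% of all genes tested. *S100a4* stood at 142 and 49.1 CPM (0.0575) and passed without DN1 replicate 2 (0.0299) or R2 (0.0238).

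Of 3 tested genes for receptors that bind S100A8 and S100A9, *Tlr4* (66.5 and 3.26 CPM, adjusted p = 0.00301) and *Cd36* (564 and 0.238 CPM, 0.00436) were lower in DN1 than in IgG, and *Bsg* (374 and 300 CPM, 0.185) did not pass.

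The genes whose profile over the 10 libraries lay nearest to the primary class, by the root mean square distance of centred log2(CPM + 0.5), were *Ms4a3* (0.76), *Gda* (0.77) and *Igsf6* (0.79) among 9748 genes. The members of all classes were left out of this ranking. *Ms4a3*, a gene of granulocyte-monocyte progenitors, stood at 382, 1020, 531 and 667 CPM in IgG, 60.5 and 5.35 CPM in DN1, and under 0.1 CPM in DN2 cells. Nearest to the secondary class were *Chil3* (0.54), *Lyz2* (0.79) and *Lyz1* (0.80). The S100 genes had no neighbour as near among these genes, with *Chil3* at 1.34, *Lyz2* at 1.58 and *Ms4a3* at 1.71. Members of the other classes could not appear as their neighbours. Among the 8 granule members, each measured against a mean that includes it, *Lcn2* (0.22) lay closest to its own class mean and *Ctsg* (1.46) farthest.

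Markers of other myeloid lineages were also counted in the IgG libraries. All 11 macrophage markers were lower in DN1 than in IgG, and their summed CPM ran from 1588 to 6966 over the IgG libraries, highest in D1 and lowest in D2, the library with the highest primary granule sum. The summed monocyte markers stood at 1513, 4580, 2357 and 4091 CPM in D1, D2, R1 and R2, the same order of libraries as the primary granule sum. Of these markers only *Ly6c2* and *F13a1* followed that order. *Ccr2* was highest in R2 (1196 CPM), *Irf8* (94.8 CPM) and *Klf4* (7.75 CPM) were lowest in D2, and *Fn1* was lowest in R1 (148 CPM). Those of mast cells and basophils ran from 42.7 to 197 CPM in IgG, below both DN1 libraries, and 5 of these 10 markers were higher and 3 lower in DN1 than in IgG. Their part in the granule gene differences was not tested.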

How the data were processed

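Total RNA libraries (TruSeq Stranded) of 10 samples were sequenced by the authors, who aligned shortened first-end reads to mm10 with TopHat 2.12, counted reads with htseq-count 0.6.1p1 (intersection-strict) and deposited raw counts per gene, not normalized. The annotation and strand setting of the counting are not given in the sources used here, so overlapping and antisense genes are uncertain. The 5 summary rows of each file, 20.5% to 41.0% of tallied reads, were left out. Genes that reached 1 CPM or more in 2 or more libraries were fitted in 4 groups with edgeR 4.0.16 in R 4.3.3 (quasi-likelihood test, TMM factors 0.858 to 1.192, prior count 0.125, common dispersion 0.189), with adjusted p under 0.05 as threshold. The test was tried on simulated counts, and no statement here rests on that trial. Printed CPM values use plain library totals. Exon lengths and coordinates are those of GENCODE vM21, promoters those of RefSeq (GRCm38.p6).

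The members and lists were chosen with earlier results of these data known. Named beside the members were the 3 nearest profiles per class (genes with a mean of 5 CPM or more), up to 3 genes of each pathway list with the highest mean CPM in IgG, all granulocyte regulators, and each tested granzyme or mast cell protease gene, and the top gene of each marker list, of which *Il2ra*, *Csf1r*, *F13a1* and *Cd34* are named and the rest given within sums. *Prss57*, *Srgn*, the other markers named (*Ccr2*, *Fn1*, *Klf4*, *Ly6c2*, *Irf8*, *Cd68*, *Adgre1*, *Tcf7*, *Cd3g*, *Cd3d*, *Cd3e*, *Bcl11b*, *Gata3*, *Rag1*, *Ptcra*, *Lck*, *Flt3*, *Hoxa9*, *Mecom*, *Kit* and *Meis1*) and *Slpi*, *Pglyrp1*, *Hp*, *Cd177*, *Olfm4*, *Cyba*, *Cd63* and *Gusb* were chosen after values were seen. Alternatives were DESeq2 1.42.0, library size scaling, other filters, a prior count of 2, only the groups compared, either pair of controls, each library left out and a replicate block. Python 3.11.15 was used for summaries. Per the methods, DN1, DN2a and DN2b were isolated from each LSK replicate, and the label dates place replicates 1 and 2 of every stage in separate periods, so the replicate number was read as a pairing, although no label ties a library to an isolate. Replicate differences correlated across genes at 0.079 (DN1 and DN2a), 0.298 (DN1 and DN2b) and 0.277 (DN2a and DN2b).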

Additional observations from a re-analysis of the deposited data

How the results depend on the processing

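All 10 members stayed lower in DN2a and in DN2b than in IgG under each alternative, with 10 of 10 called for every library left out. Shares in parentheses are those of all genes tested that were called lower. The count lower in DN1 than in IgG was 9 (17.0%), was 10 with DESeq2 (22.1%) and with no filter (10.7%), 6 with only the groups compared (14.6%), 4 with controls D1 and D2 (11.9%) and 5 with R1 and R2 (15.2%), and ranged from 5 (12.6%) to 10 (11.8%) with a library left out. Scaling to library size alone moved the median log2 fold change of all genes in DN1 over IgG from 0.01 to 0.27 and the lower share of calls from 54.3% to 38.6%, and 7 members passed (13.3%). For DN2a under DN1 the count of 1 became 8 with DESeq2 (2.86%), 3 with no filter (0.286%) and 0 of 9 tested with only the groups compared (0.0731%), and 0 to 7 with a library left out (0% to 1.53%). For DN2b under DN1 the count of 4 became 9 with DESeq2 (3.95%), 0 of 9 tested with only the groups compared (0.197%), and 0 to 8 with a library left out (0.115% to 2.15%). With only the groups compared, 8 members in DN2a and 9 in DN2b had an unadjusted p under 0.05 (6.97% and 6.23% of all genes tested). Why these counts moved was not tested.

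With the replicate block 3 members passed in each of DN2a (0.15%) and DN2b (0.769%) under DN1, and 0 in each (0.0353% and 0.574%) in the same DN libraries with no block, where *Camp* was under the filter.

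The mean log2 ratio of secondary to primary genes changed sign with a library left out, from -0.174 to 0.861 in IgG and from -2.12 to 0.767 in DN1. Its IgG mean turned to -0.143 without length scaling and -0.192 as a difference of mean logs. Among single genes the direction turned for *Ctsg* in DN2a over DN1 (-2.32 to 0.83 with a library left out, the highest without DN1 replicate 1) and for genes near 0: *Srgn* in DN1 over IgG (-0.025 with DESeq2, -0.306 with D1 and D2, -0.191 to 0.558 with a library left out, with -0.063, -0.1 and -0.077 without DN1 replicate 1, R1 and R2) and in DN2b over IgG (-0.067 with D1 and D2, -0.068 to 0.813 with a library left out), *Runx1* in DN1 (-0.105 to 0.395) and *Serpinb1a* in DN1 (0.022 with library size scaling, -0.518 to 0.13 with a library left out). Levels of 3 reads or fewer in a DN2 library carry a wide counting error.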
